A study of Drosophila melanogaster with 20 samples.

Results

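Genes that change with time in culture alone were examined in untreated SL2 cells, a Drosophila melanogaster embryonic line of blood-cell character. Cells harvested on day 3 were set against cells harvested on day 1, and neither group received double-stranded RNA. The members were found by sample title and number 6 of the 18 samples of the series: 2 cultures of day 3 and 4 of the 5 cultures labelled untreated at day 1. The series also holds untreated cells of day 5 (2 cultures) and cells given SPS1 dsRNA at the same days. The dsRNA targets selenophosphate synthetase 1 by RNA interference, and the study used it to look for genes that depend on this enzyme. All groups are 1 cell line grown at 25 °C in HyQ SFX-Insect medium, and the protocol has cells split into new dishes after 24 hours, so the day 1 and day 3 harvests lie on different sides of that step. A change with age of the culture, with density or with the split cannot be told apart. RNA was measured on Affymetrix Drosophila Genome 2.0 arrays, on which each gene is read by 1 or more probe sets. All values are log2 levels after robust multi-array averaging (RMA), so a difference of 1 is a 2-fold change. Levels are not compared between genes, apart from a cut: a mean below 6 is called dim or low.

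SL2 cells descend from late embryos and keep features of plasmatocytes, the macrophage-like blood cells of the fly. A culture that is plated and left to grow uses up nutrients, becomes denser and accumulates metabolic products. Genes of detoxification, nutrient sensing, the stress response and the cell division cycle are known to follow such conditions in cultured cells. The blood-cell label was checked first. Serpent (srp), the GATA factor of blood cells, stood at 10.02 ± 0.022 on day 3 and 10.12 ± 0.227 on day 1 (SD, n = 2 and 4). Its cofactor u-shaped (ush) stood at 9.82 on day 3 and 9.91 on day 1. The phagocytic receptor croquemort (crq) stood at 8.45 on day 3 and 8.56 on day 1. The engulfment receptor draper (drpr) stood at 9.31 on day 3 and 8.90 on day 1. NimC1, a receptor of mature plasmatocytes, was dim, at 4.60 on day 3 and 4.55 on day 1. Other plasmatocyte markers were low too: on day 1 Hml stood at 5.91, Pxn at 5.97, eater at 4.62 and Sr-CI at 3.62. Only 7 of the 22 plasmatocyte markers had a mean above 6. Of the 9 crystal cell and lamellocyte markers 4 did. The same held for 1 of 17 neuron, muscle and fat body markers and 3 of 9 germline and ovarian somatic markers. On day 1 PPO3 of that list stood at 7.93, PPO2 at 6.90 and PPO1 at 4.15. None of the 22 plasmatocyte markers passed the test described below, nor did any of the 9 crystal cell and lamellocyte markers or the 17 markers of neuron, muscle and fat body.

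The arrays did not form 2 clean groups by day. The typical difference between 2 samples, as the root mean square over all probe sets, was 0.298 log2 units between the 2 day 3 cultures. It lay between 0.235 and 0.307 from a day 3 to a day 1 culture, and between 0.17 and 0.274 within day 1. Day 1 cultures 1 and 5 were alike (0.171), as were cultures 2 and 3 (0.17), and the distance across these pairs was 0.253 to 0.274. A technical array labelled replicate 2 was averaged with day 3 culture 2. The labels do not settle whether both hold RNA of 1 culture, and they differed by 0.226, against 0.305 between the technical array and culture 1. The technical array had an actin 3′ minus 5′ difference of 1.24 log2 units, against 0.12 to 0.49 on the other untreated arrays, a measure of RNA quality. Its GAPDH 3′ minus 5′ difference of 1.66 lay within the 1.26 to 1.75 of the others. Leaving the technical array out gave 13 probe sets past the threshold in place of 11. Averaging the technical arrays of day 3 with culture 1 of their group instead gave 186. If the technical arrays hold RNA of culture 2, that setting makes the 2 day 3 samples more alike by construction. A more alike pair lowers the spread that the test uses. Untreated day 5 minus day 1, which uses no day 3 mean, went from 20 to 61 calls in that setting. Day 1 culture 4 was left out as resembling dsRNA-treated cells, which is shown here for 1 gene. The vitamin B6 gene sgll, which encodes pyridoxine phosphate oxidase, stood at 7.76 in culture 4. It stood at 7.64 to 8.14 in the SPS1 dsRNA cultures of day 1 and 8.45 to 8.70 in the other untreated day 1 cultures. Over all probe sets, culture 4 lay 0.162 from untreated day 1 culture 3 and 0.175 from culture 2. Its distance to dsRNA arrays is not given here. With culture 4 kept, 20 probe sets passed, among them all 11 described here.

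**Figure D1:**
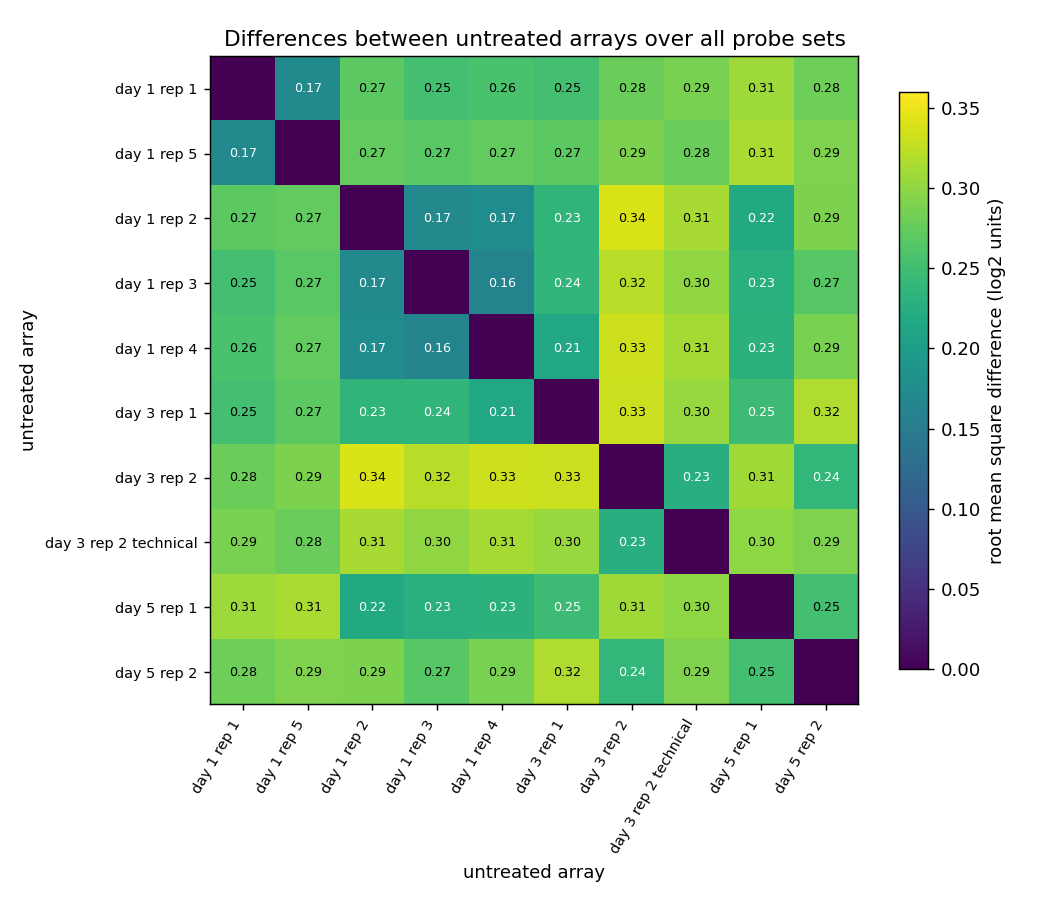
Root mean square difference in log2 level between each pair of untreated arrays (10 arrays, both axes, 18769 probe sets), with darker cells for more similar arrays. Day 1 arrays 1 and 5 form one dark block and 2, 3 and 4 another, and day 3 array 2 and the technical array stand apart from day 3 array 1.

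Few probe sets passed between day 1 and day 3. Of 18769 probe sets, 11 passed an adjusted p of 0.05 (0.0586%), with 8 higher on day 3 (0.0426%) and 3 lower (0.016%). The risers included a juvenile hormone-inducible gene, a glutathione S-transferase, 2 genes of mitochondrial proteins, a synaptic priming factor and a translesion DNA polymerase. The fallers were a lysosomal cystine exporter, a tumour necrosis factor ligand and an organic cation transporter. The test was limma's moderated test over all 6 groups of the series, with Benjamini-Hochberg adjustment over every probe set. At an unadjusted p under 0.05, 1049 probe sets were found (5.59%), and in 2500 (13.3%) the day 3 values lay wholly above or below those of day 1. The median change over all probe sets was -0.0045, with the 5th percentile at -0.23 and the 95th at 0.25. The count depended on each day 3 culture: 62 probe sets passed without culture 1 and 5 without culture 2. It also depended on the day 1 cultures, with 10 probe sets against cultures 1 and 5 alone and 3 against cultures 2 and 3 alone. In a bulk sample, fewer cells of a kind and less RNA in each cell cannot be told apart.

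**Figure D2:**
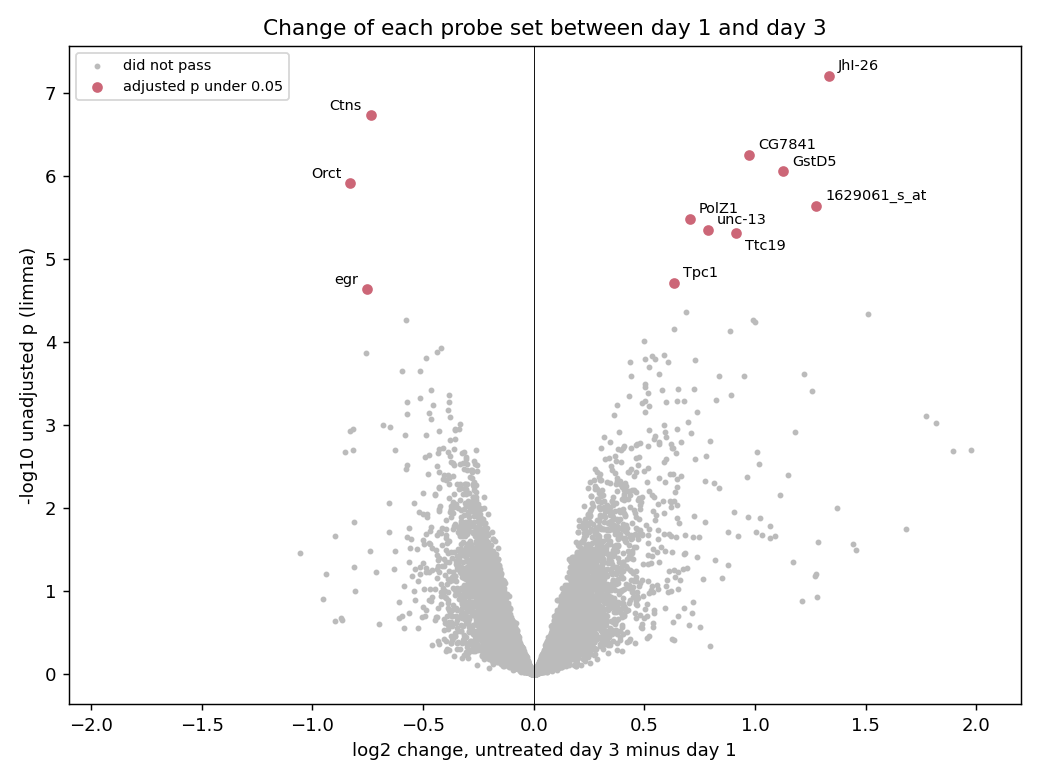
Log2 change from day 1 to day 3 in untreated cells (x axis) against the -log10 unadjusted p of limma's test (y axis), 1 point for each of 18769 probe sets. The 11 that passed are labelled, and several unlabelled points further right have larger changes but did not pass.

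JhI-26, a gene named for its induction by juvenile hormone, had the lowest p. Its log2 level was 8.88 and 8.96 on day 3, against 7.59, 7.67, 7.46 and 7.63 on day 1. The 2 day 3 values agree closely and lie far above every day 1 value, culture 4 at 7.72 included. The change was 1.33 ± 0.137 (log2, SE), or 2.52-fold, with an adjusted p of 0.00116. It passed in all 6 fits that left out 1 culture. In the 2 of these fits that leave a single day 3 culture, here and below, that culture is assumed to vary like the other groups.

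GstD5 belongs to the delta class of glutathione S-transferases, which join glutathione to reactive compounds. Its level was 6.34 and 6.28 on day 3, against 5.10, 5.26, 4.98 and 5.39 on day 1. The groups do not overlap, and the lowest day 3 value is 0.89 above the highest of day 1. The probe set is dim, with a mean of 5.44 over the samples in the fit. The change was 1.13 ± 0.142, or 2.19-fold (adjusted p = 0.00411). It did not pass without day 3 culture 2 (adjusted p = 0.0643).

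2 of the risers encode mitochondrial proteins. Ttc19, which helps to maintain respiratory complex III, stood at 7.48 and 7.53 on day 3, against 6.45, 6.60, 6.60 and 6.72 on day 1. Both day 3 cultures were higher than every day 1 culture, and the change was 0.91 ± 0.133 (adjusted p = 0.0101). Its call was lost in 6 of 19 alternative settings. Tpc1, a carrier of thiamine pyrophosphate across the inner membrane, stood at 9.03 and 9.43 on day 3, against 8.61, 8.62, 8.59 and 8.57 on day 1. Its change of 0.63 ± 0.104 had an adjusted p of 0.036. Its day 1 values were nearly the same, while the day 3 values differed by more from each other, and it kept its call in 1 of the 6 fits that left out 1 culture.

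PolZ1, the catalytic subunit of DNA polymerase zeta, copies across damaged bases. Its level was 8.68 and 8.58 on day 3, against 7.80, 8.16, 7.92 and 7.82 on day 1. The groups did not overlap, although day 1 culture 2 stood above the other 3, and the change was 0.71 ± 0.099 (adjusted p = 0.00873). unc-13, known for priming synaptic vesicles for fusion, stood at 8.96 and 8.69 on day 3, against 8.09, 7.94, 7.98 and 8.12 on day 1. It rose by 0.79 ± 0.114 (adjusted p = 0.0101). CG7841 had 9.41 and 9.90 on day 3, against 8.60, 8.71, 8.79 and 8.62 on day 1. Its day 3 cultures differed from each other by more than the whole range of day 1, and the change of 0.97 ± 0.118 passed with an adjusted p of 0.00344. The eighth riser, probe set 1629061_s_at, is assigned to more than 1 gene and has no single name. It stood at 8.87 and 9.08 on day 3, against 7.64, 7.68, 7.66 and 7.82 on day 1, a change of 1.28 ± 0.174 (adjusted p = 0.00706). Day 1 culture 4, which is outside the fit, was at 8.29, between the groups. Of 19 alternative settings, the call was lost in 6 for PolZ1, 7 for unc-13, 5 for CG7841 and 4 for 1629061_s_at.

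The lowest p among the falls belonged to Ctns, the fly cystinosin, which exports cystine from lysosomes. Its level was 9.74 and 9.77 on day 3, against 10.42, 10.53, 10.49 and 10.54 on day 1. The spread within each day was small beside the difference of -0.74 ± 0.082 (1.67-fold lower, adjusted p = 0.00174). Over the 6 fits that left out 1 culture the change ran from -0.76 to -0.72. The call held in each fit that left out 1 day 1 culture. It was lost with only the untreated groups of days 1 and 3 in the fit, and also with only the 3 untreated groups. A second Ctns probe set was dim, with a mean of 4.77, and its change of -0.21 did not pass (adjusted p = 1).

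Orct, a membrane transporter of organic cations, stood at 8.67 and 8.51 on day 3, against 9.40, 9.37, 9.35 and 9.55 on day 1. Every day 1 value was higher, and the change was -0.83 ± 0.107, or 1.78-fold lower (adjusted p = 0.00454). Culture 4 of day 1 was at 9.07, again between the groups. The Orct call was lost in 4 of 19 alternative settings. eiger (egr), the fly tumour necrosis factor ligand that signals to JNK, stood at 7.88 and 7.42 on day 3, against 8.33, 8.59, 8.47 and 8.23 on day 1. It fell by 0.75 on the log2 scale with an SE of 0.126 (adjusted p = 0.0395). The 2 day 3 cultures differed by 0.46. The call was lost in 14 of 19 alternative settings, the direction in none. A second egr probe set, at 9.50 and 9.09 on day 3, against 9.79, 9.94, 9.88 and 9.86 on day 1, had a change of -0.58 that missed the threshold (adjusted p = 0.0673).

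**Figure D3:**
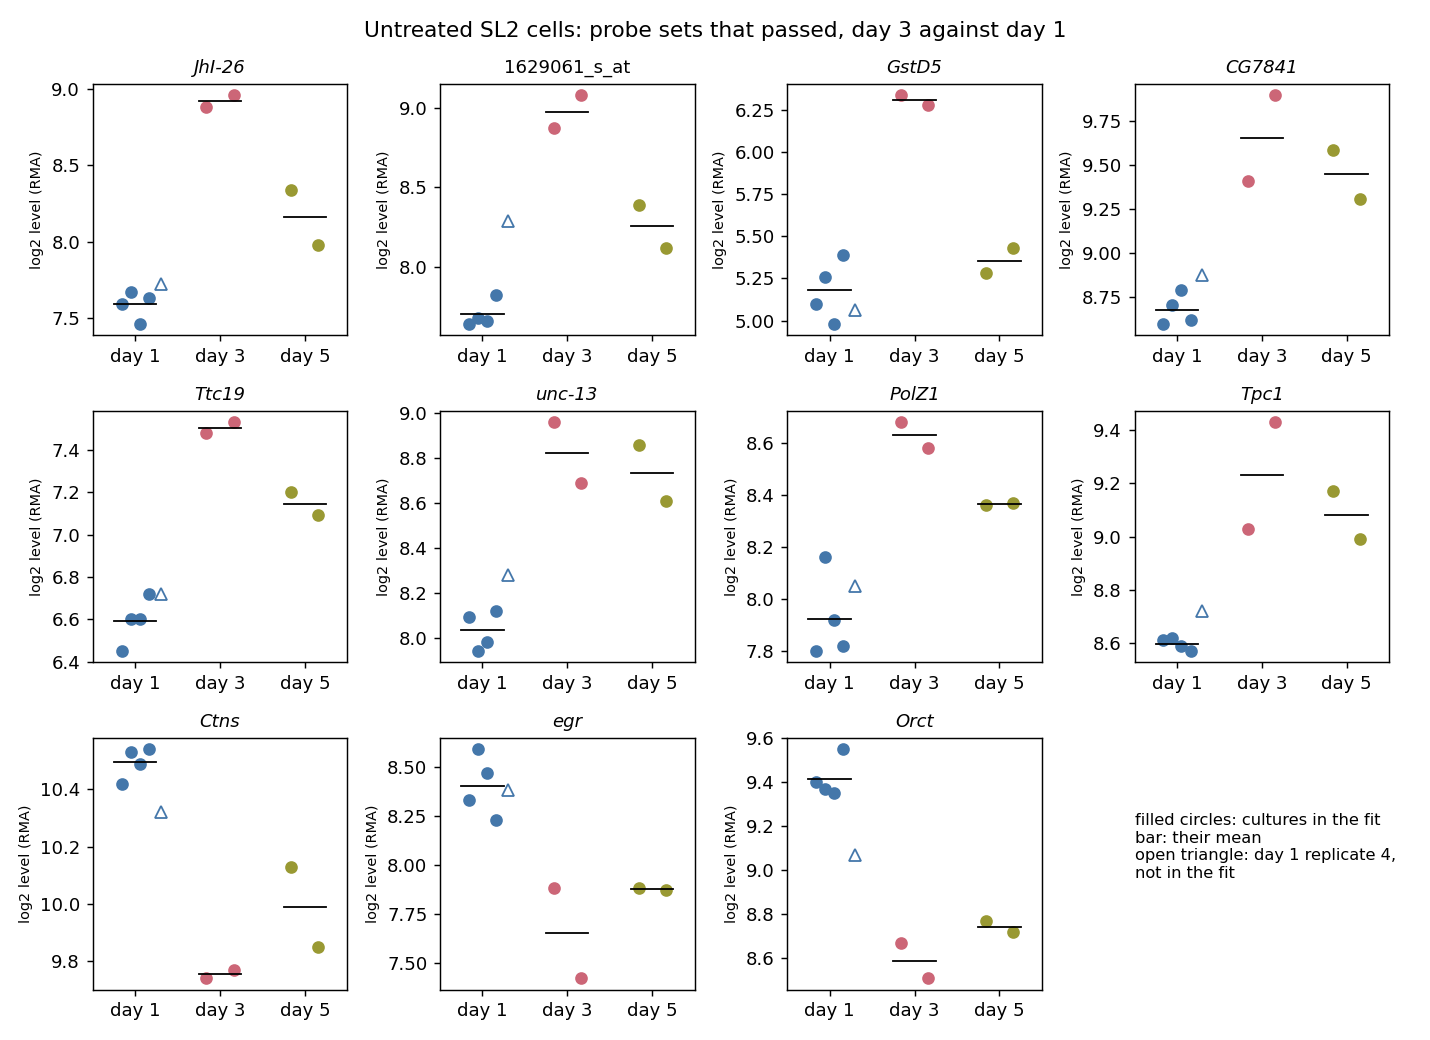
Log2 RMA level (y axis, scaled separately in each panel) of the 11 probe sets that passed, in untreated cultures of days 1, 3 and 5 (x axis). Filled circles are cultures, bars are group means, and the open triangle is day 1 culture 4. Day 3 does not overlap day 1 in any panel, and GstD5 on day 5 lies near its day 1 level.

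Untreated cells of day 5 give the values that follow. This comparison shares the day 1 cultures, so it is given only beside the other. GstD5 stood at 5.28 and 5.43 on day 5, within or just above its day 1 range of 4.98 to 5.39. JhI-26 stood at 8.34 and 7.98, between day 1 and day 3. unc-13 stood at 8.86 and 8.61, close to its day 3 levels. The day 5 minus day 1 change was 0.70 for unc-13 (adjusted p = 0.0197), 0.77 for CG7841 (adjusted p = 0.0168), -0.50 for Ctns (adjusted p = 0.0197) and -0.67 for Orct (adjusted p = 0.0197). In that comparison 20 of all probe sets passed (0.107%), against 2 without day 1 culture 5 and 40 without either day 3 culture, which enters only the shared spread. No probe set passed in limma against day 1 cultures 2 and 3 alone (1237 at an unadjusted p under 0.05). In the fit as reported, the day 5 minus day 1 change was 0.17 for GstD5 (adjusted p = 0.76) and 0.58 for JhI-26 (adjusted p = 0.166). For day 5 minus day 3, limma called 0 of the probe sets (0%), with 1056 at an unadjusted p under 0.05 (5.63%). Without day 3 culture 1 it called 14, without day 3 culture 2 it called 3, and without day 1 culture 5 it called 1. The smallest adjusted p among the 11 was that of GstD5, at 0.101 for a change of -0.96.

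Cells given SPS1 dsRNA were also compared between day 3 and day 1 (2 and 5 cultures), and this change shares no array with the untreated one. In them 39 probe sets passed (0.208%), among which were 4 of the 11. JhI-26 had a change of 0.86 (adjusted p = 0.0113), Ttc19 of 0.86 (adjusted p = 0.0105), PolZ1 of 0.61 (adjusted p = 0.0113) and Ctns of -0.81 (adjusted p = 0.000121). The sign was the same as in untreated cells for 61.2% of all probe sets. It was the same for all 33 that differed at least 2-fold in untreated cells, of which 3 passed. Of the 11, 10 had the same sign. Dishes with the same number were related across treatments: over bright probe sets, the deviations of a day's dsRNA and untreated cultures from their group means correlated at 0.71 to 0.81. The exception in sign was egr, which stood at 8.57 and 8.61 on day 3 and 8.28 to 8.45 on day 1 in dsRNA cells, a change of 0.22 (adjusted p = 0.804).

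The 2 changes were also tested against each other. In the fit without pairing, 3 probe sets of 18769 passed (0.016%), none of them among the 11, and 419 had an unadjusted p under 0.05 (2.23%). With the day and culture number as a random block, 26 passed, and egr and GstD5 were 2 of them. The egr change was 0.99 higher in dsRNA than in untreated cells (log2, adjusted p = 0.00562, against 0.185 without the block), and its second probe set gave 0.88 (adjusted p = 0.00528). The GstD5 change was lower by 0.90 in dsRNA cells (difference -0.90, adjusted p = 0.0297, against 0.447 without the block). In dsRNA cells GstD5 stood at 5.58 and 5.11 on day 3 and at 4.86 to 5.30 on day 1, so those days overlapped. For the other 9 the blocked adjusted p of the difference ran from 0.143 to 0.989. A p above the threshold does not show that the changes were alike.

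**Figure D4:**
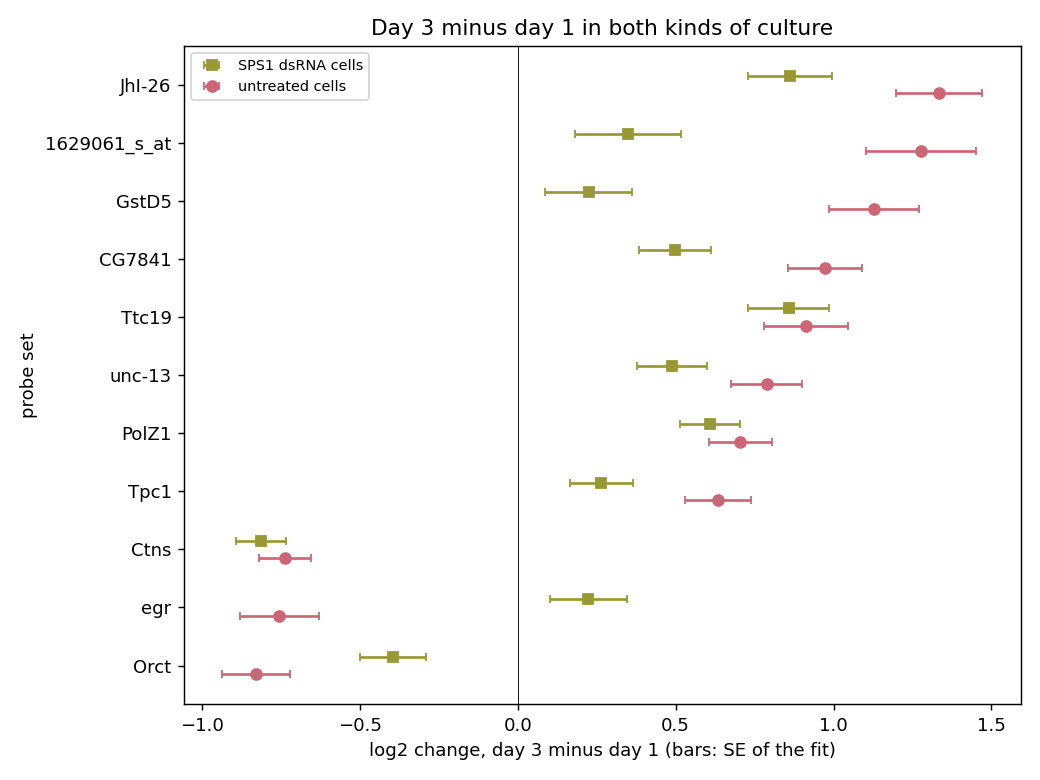
Log2 change from day 1 to day 3 (x axis, bars are the SE of the limma fit) of the 11 probe sets (rows) in SPS1 dsRNA cells (squares) and untreated cells (circles). The symbols for Ttc19, PolZ1 and Ctns lie close together, while those for egr fall on opposite sides of 0.

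Pathways were read through 39 gene lists with 878 measured genes, 1 probe set a gene. GstD5 was the only member of any list that passed; over all 11982 genes, 9 passed (0.0751%). List medians ran from -0.22 for the proteasome to 0.23 for glycolysis, and 29 of the 39 lay within 0.1 of 0. For comparison, the median over all genes was -0.0068, 6.54% of genes had an unadjusted p under 0.05 and in 13.9% the groups did not overlap. Of all genes, 47.98% had a positive change. Values of members that did not pass are given below without a claim that they changed.

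**Figure D5:**
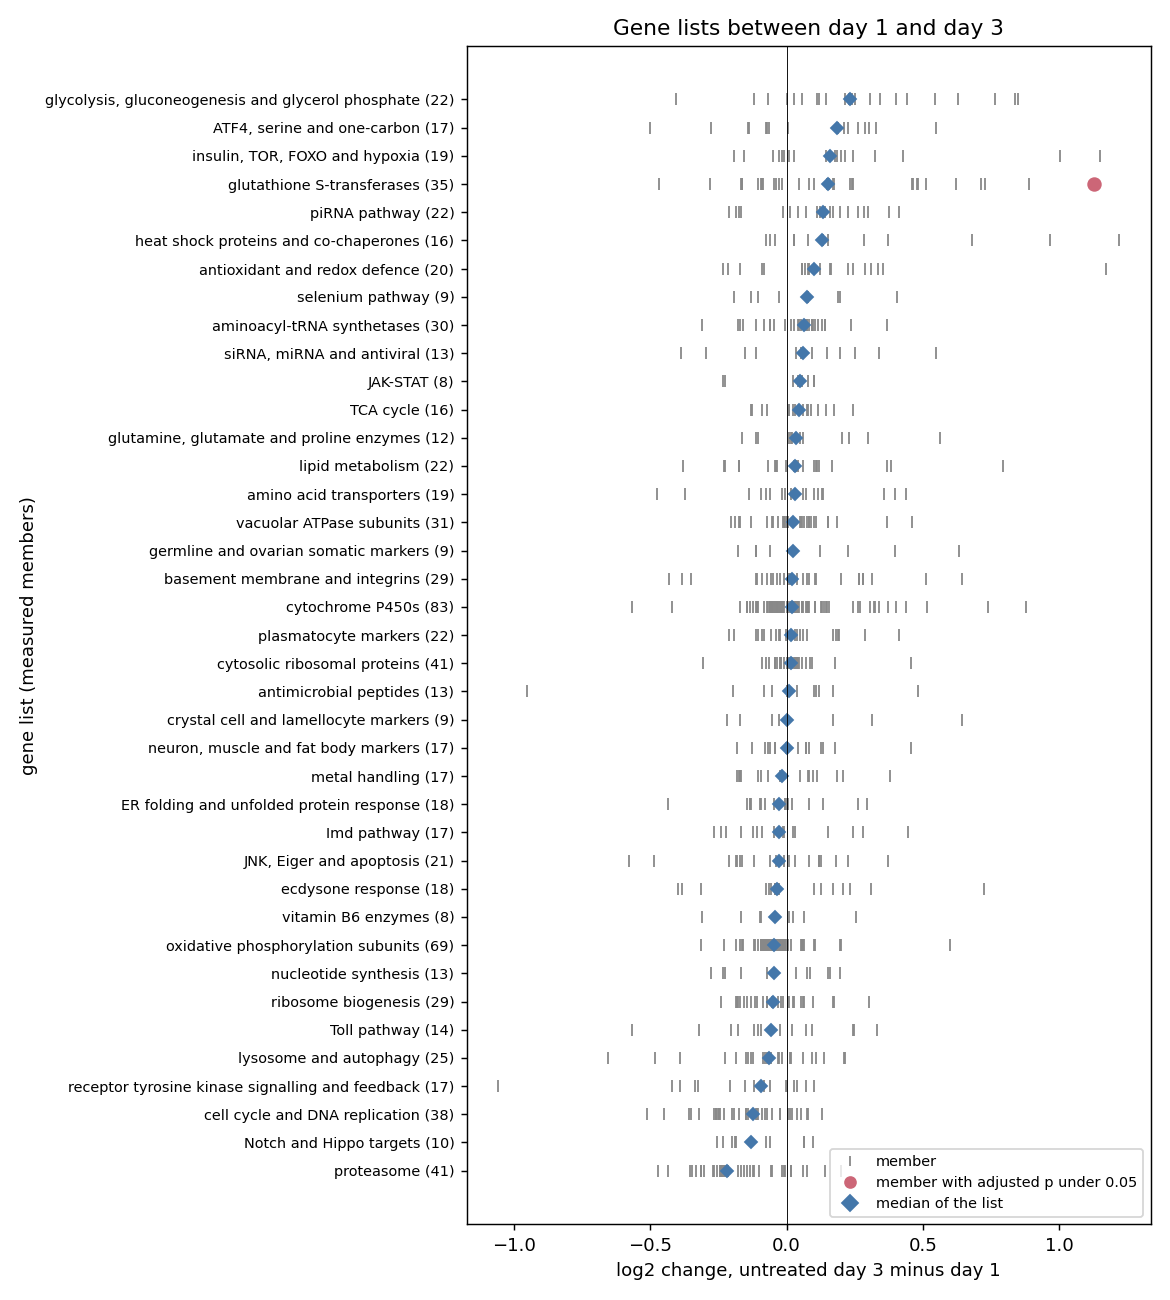
Log2 change from day 1 to day 3 in untreated cells (x axis) of each measured member (grey ticks) of 39 gene lists (rows, ordered by the median), with list medians as diamonds and the 1 member that passed, GstD5, as a circle. Most medians lie near 0, and the proteasome and glycolysis lists form the ends.

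Detoxification genes held the 1 list member that passed. Of 35 glutathione S-transferases, GstD5 alone passed, 22 had a positive change, and the median was 0.15. In 8 the day 3 values lay wholly above those of day 1 (6.54% of all genes) and in 3 wholly below (7.35% of all genes). GstE11, of the epsilon class, stood at 9.91 and 10.12 on day 3, against 9.19, 9.06, 8.95 and 9.31 on day 1, a difference of 0.89 that missed the threshold (adjusted p = 0.077) and passed with day 1 culture 4 kept. GstD9 differed by 0.73 (adjusted p = 0.16) and GstE6 by 0.48 (adjusted p = 0.603). No cytochrome P450 of 83 passed, and their median was 0.019. Among 20 antioxidant genes none passed. Gclc, the catalytic subunit for glutathione synthesis, differed by 0.23 (adjusted p = 0.791).

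Heat shock proteins and co-chaperones keep other proteins folded, and their genes respond to stress. None of 16 passed, 13 had a positive change, and in 5 the groups did not overlap, all of these higher (6.54% of all genes). Hsp68, an inducible Hsp70-family chaperone, stood at 9.34 and 8.56 on day 3, against 7.81, 7.61, 7.45 and 8.06 on day 1. The difference of 1.22 had an adjusted p of 0.127, and it passed with the random block (0.0396). The small heat shock protein gene Hsp26 differed by 0.96 (adjusted p = 0.416) and the co-chaperone DnaJ-1 by 0.37 (adjusted p = 0.353). In dsRNA cells the change was 0.37 for Hsp68, -0.12 for Hsp26 and -0.11 for DnaJ-1, and none of these passed.

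Glycolytic enzymes turn glucose into pyruvate. The mean level over the list was 8.55 and 9.13 on day 3, against 8.41 to 8.74 on day 1. None of 22 passed, and 19 had a positive change. Pfk, phosphofructokinase, stood at 7.49 in culture 1 and 8.74 in culture 2 on day 3, against 7.26, 7.23, 7.29 and 7.33 on day 1. Its difference of 0.84 had an adjusted p of 0.462. The list's median was 0.23 with both cultures, 0.45 without day 3 culture 1 and 0.034 without culture 2. Triose phosphate isomerase (Tpi) showed the same order, at 10.32 and 10.99 on day 3, against 9.94 to 10.28 on day 1, with a difference of 0.54 (adjusted p = 0.495).

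2 genes of nutrient and oxygen sensing had differences above 1, and none of the 19 in that list passed. scyl, an inhibitor of TOR related to mammalian REDD1, stood at 8.80 and 8.56 on day 3, against 7.84, 7.43, 7.58 and 7.86 on day 1. Its difference of 1.00 missed the threshold (adjusted p = 0.0673), and it passed with the random block (0.0396). Hph, the prolyl hydroxylase that marks the hypoxia factor for destruction, stood at 10.79 and 11.79 on day 3, against 9.88, 10.45, 10.47 and 9.75 on day 1 (adjusted p = 0.41). In the list of ATF4, serine and one-carbon genes, none of 17 passed. Its first gene by p, aay (phosphoserine phosphatase, the last step of serine synthesis), differed by 0.55 (adjusted p = 0.109). crc, the fly ATF4, differed by 0.29 (adjusted p = 0.464). JhI-21, an amino acid transporter of the L type, stood at 12.22 and 12.32 on day 3, against 11.75, 11.85, 11.96 and 11.77 on day 1, and its difference of 0.44 had an adjusted p of 0.127.

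Proteasome and cell cycle genes had most of their differences below 0, but no member passed. Of 41 proteasome genes none passed, and 35 had a negative change. In limma 11 had an unadjusted p under 0.05 (6.54% of all genes), all lower. In 8 the day 3 values lay wholly below day 1 (7.35% of all genes). Rpn7, a lid subunit, stood at 11.23 and 10.87 on day 3, against 11.26, 11.65, 11.55 and 11.49 on day 1, a difference of -0.44 (adjusted p = 0.367). The list's median of -0.22 was -0.31 without day 3 culture 1 and -0.058 without culture 2. Of 38 cell cycle and replication genes none passed, 30 had a negative change, and 11 lay wholly below day 1 (7.35% of all genes). Cdk2, a kinase of the G1 to S transition, stood at 8.30 and 8.03 on day 3, against 8.53, 8.82, 8.66 and 8.71 on day 1. Its difference was -0.51 (adjusted p = 0.125). The origin recognition subunit Orc2 differed by -0.36 (adjusted p = 0.292) and the primase subunit Prim1 by -0.45 (adjusted p = 0.488). The cell cycle median was -0.15 without day 3 culture 1 and -0.060 without culture 2.

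Among the remaining lists, the 22 piRNA pathway genes had a median of 0.13, with 17 positive changes, and none passed. In 5 of them the day 3 values lay wholly above day 1 (6.54% of all genes). The 10 Notch and Hippo targets had a median of -0.13, with 7 negative changes, and none passed. Cytosolic ribosomal protein genes, 41 in number, had a median of 0.015, with none at an unadjusted p under 0.05. The 69 oxidative phosphorylation subunits had a median of -0.045, and none passed. Antimicrobial peptide genes (13) had a median of 0.0085, and the largest difference was that of Mtk, metchnikowin, at -0.95. Mtk stood at 5.16 and 6.55 on day 3, against 7.11, 6.44, 6.35 and 7.32 on day 1, so the groups overlapped (adjusted p = 1). None of the 25 lysosome and autophagy genes passed. The JNK, Eiger and apoptosis list had a median of -0.029 and no member that passed, since the egr probe set with the higher mean is the one that missed the threshold.

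Large differences were more common than passed tests. 33 probe sets differed at least 2-fold between the days, 32 of them higher on day 3, and 3 of these passed. In 25 of the 32, day 3 culture 2 stood above culture 1. The following genes were singled out after their values were seen. c(2)M, a protein of the meiotic synaptonemal complex, stood at 5.14 and 6.15 on day 3, against 4.29, 4.17, 4.05 and 4.04 on day 1. Its difference of 1.51 missed the threshold (adjusted p = 0.0664). MFS3, a transporter of the major facilitator superfamily, stood at 7.09 and 10.04 on day 3, against 6.35, 7.28, 7.41 and 6.48 on day 1, so culture 1 lay within the day 1 range and the groups overlapped (difference 1.68, adjusted p = 0.644). CG15784 was high in the other culture, at 11.62 and 10.43 on day 3, against 9.65 to 9.99 on day 1 (difference 1.26, adjusted p = 0.162). The 1 gene at least 2-fold lower was aos, the secreted EGF receptor antagonist Argos. It stood at 6.42 and 7.58 on day 3, against 8.07, 7.93, 8.06 and 8.15 on day 1, and the difference of -1.06 had an adjusted p of 0.814.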

How the data were processed

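Per the submitters' processing notes, the authors ran RMA, and the deposited series table is in log2 units. The version and probe annotation were not given in the sources used here. Of 18952 rows, 183 controls were dropped, leaving 18769 probe sets. The platform annotation gave 13647 of these 1 gene symbol, 402 several and 4720 none. Background correction and normalization in RMA understate changes of dim genes, and the number of arrays limits precision.

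Groups came from sample titles. Technical arrays were averaged with replicate 2, and untreated day 1 replicate 4 was left out. limma 3.58.1 (R 4.3.3; lmFit, eBayes) was fitted to 17 samples in 6 groups, with 11 residual and 4.21 prior degrees of freedom and Benjamini-Hochberg adjustment. Same-numbered dsRNA and untreated cultures of a day deviated together (r from 0.71 to 0.81, 6848 probe sets with a mean above 6), so numbers pair samples within a day. Members and gene lists were chosen with earlier results of these data known. A gene's probe set with the highest mean stood for it in lists. Named genes are those that passed, up to 4 list members with the smallest p, and those said to be singled out. Alternatives changed the samples, scaling, filter, trend and block. Probe set positions and sequences were not used here.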

Additional observations from a re-analysis of the deposited data

Results flagged for a closer look

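For 3 genes the change from day 1 to day 3 differed between SPS1 dsRNA and untreated cells in the fit without pairing. More probe sets passed with the random block of day and culture number, as given above, and these 3 genes were among them. For Rpp14b the difference was 2.00 (adjusted p = 0.000133): it stood at 7.37 and 7.61 on day 3 in dsRNA cells, against 5.24 and 5.51 in untreated cells. For CG32280 it was -1.44 (adjusted p = 0.00778), with 8.53 and 8.40 on day 3 in dsRNA cells, against 10.28 and 9.75 in untreated cells, and this call was lost without dsRNA day 3 replicate 2 (adjusted p = 0.124). For sgll it was -2.06 (adjusted p = 0.0011), with 5.53 and 5.48 on day 3 in dsRNA cells, against 8.57 and 7.97 in untreated cells. In untreated cells none of the 3 passed between the days, with changes of 0.30 for Rpp14b, -0.06 for CG32280 and -0.31 for sgll. No outlying culture was found in the 60 sets of 4 day 1 values examined. Day 1 culture 4 was not in these sets, and day 3 cultures were not examined for outliers in this way.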

How the results depend on the processing

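The count of 11 probe sets (8 higher, 3 lower) became 20 (15 and 5) with day 1 replicate 4 kept, 2 (2 and 0) with only the untreated groups of days 1 and 3 in the fit (1067 at an unadjusted p under 0.05), and 5 (4 and 1) with the 3 untreated groups. It became 17 (12 and 5) after cyclic loess and 3 (2 and 1) against day 1 replicates 2 and 3 alone. It became 186 (130 and 56) with technical arrays averaged with replicate 1, which the labels do not call for. Leaving out each culture in turn gave 5 to 62 probe sets, 4 to 50 higher and 1 to 12 lower; the ends came without day 3 replicate 2 and without day 3 replicate 1. Other settings gave 8 to 13. Under centring on the median 75% of calls were higher, under cyclic loess 70.6%, and in the fit as reported 72.7%.

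With day and number as a random replicate block, 12 passed (10 of the 11, without egr, whose adjusted p became 0.051, and with scyl and Hsp68 added), and the block's correlation was 0.497. With the number as a fixed replicate block over untreated days 1 and 3, limma called 0 probe sets (0 higher, 0 lower), and 428 had an unadjusted p under 0.05. Day 3 and day 1 cultures of the same number correlated at -0.16 and -0.23. With 2 day 3 cultures the deviations from their mean mirror each other. These values therefore cannot decide whether the numbers pair cultures across days. The fixed block keeps only 2 pairs. The difference between dsRNA and untreated changes had 3 calls, 26 with the random replicate block, and 2 to 8 with 1 culture left out. Over all settings, untreated day 5 minus day 1 had 0 to 61 calls, day 5 minus day 3 had 0 to 33, and SPS1 dsRNA day 3 minus day 1 had 29 to 259, with the highest count of each where technical arrays were averaged with replicate 1. Among the 11, no setting turned a direction. JhI-26 kept its call in 18 of 19 settings. The call was lost in 3 for Ctns, in 4 for 1629061_s_at and Orct, and in 5 for CG7841. Ttc19 and PolZ1 lost it in 6, unc-13 in 7, Tpc1 in 12 and egr in 14. GstD5 lost it in 3 of 18 settings. The setting that kept only probe sets with a mean above 6 did not test it. The 2 calls left with only the untreated groups of days 1 and 3 in the fit were JhI-26 and 1629061_s_at.

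Each day 3 mean rests on 2 cultures, and an exact permutation test of 2 against 4 samples cannot go below a two-sided p of 0.0667. Dim probe sets are compressed by RMA. The cause of the dependence on single cultures was not tested.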
